A study of Mus musculus with 12 samples.

Results

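FoxD3-VP16 and FoxD3 are the same transcription factor with the effector domain exchanged, and the RNA of cells given one or the other was compared across all genes that could be tested. The comparison is between 8 of the 12 arrays of the series: the 4 titled as transfected with FoxD3-VP16 and the 4 titled as transfected with FoxD3, joined into 4 pairs by the replicate number in the title. All cells were B16-F10, a pigmented mouse melanoma line. Both proteins came from the pMES vector, in which a chick beta-actin promoter drives the insert, and EGFP is read from the same transcript behind an internal ribosome entry site. The FoxD3 insert is the chicken gene. In FoxD3-VP16 its C-terminal part, which carries the repression domain, was exchanged for the transcription-activating domain of VP16, a herpesvirus protein. The other 4 arrays hold cells given pMES without an insert, and their values are given as a reference level. They also entered the normalization, the choice of genes tested and the fit, which took its spread and the effects of replicate number from all 12 arrays. In all 3 groups cells with EGFP were collected by sorting at 24 h, so the cells are a transient, overexpressing population of 1 line. The amount of either protein was not measured by these arrays. The labels do not say whether the arrays of a group came from separate cultures, so the p-values reflect the spread among these arrays alone, and that spread may be technical.

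FoxD3 is a forkhead factor of pluripotent cells and of the early neural crest, the embryonic population that gives rise to melanocytes, glia, peripheral neurons and the skeleton of the face. It is known chiefly as a repressor, acting through its C-terminal part and Groucho corepressors, and in the crest it holds back the melanocyte fate, in part through Mitf. VP16 recruits Mediator and histone acetyltransferases. Fusing it to a DNA-binding domain is a common way to ask what activation does at the genes that a repressor binds.

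The cells carried the markers of their line. Among 10 melanocyte markers, the least bright, Gpr143, was brighter than 84.2% of all genes on the array, and Tyr than 98.4%. Of the marker lists of other cells on the array, 6 of 17 leukocyte, 3 of 12 endothelial, 2 of 14 keratinocyte and 8 of 15 fibroblast markers were bright enough to be tested. Over whole lists, tested or not, the mean level of the leukocyte markers was 5.41 to 6.05 over the FoxD3 arrays and 5.10 to 5.83 over the FoxD3-VP16 arrays. The endothelial list had 5.41 to 5.86 and 4.92 to 5.72, the keratinocyte list 5.37 to 5.79 and 5.18 to 5.61, and the fibroblast list 6.81 to 7.08 and 6.52 to 6.95. These levels are log2(intensity + 16) after quantile normalization, the scale of all levels and differences given here. The mouse Foxd3 probe set was too dim to be tested, at 4.81 ± 0.30 (SD, n = 4) with FoxD3 and 4.61 ± 0.33 with FoxD3-VP16, and since the inserts are chicken sequence it does not check the labels. Over the 8 arrays, the replicate number accounted for 53.6% of the variance of the tested genes and the vector for 33.0%. Within pairs, hybridization controls, 18S probe sets and the 3' minus 5' differences of Gapdh and Actb had mean differences of -0.05 to 0.08 (exact two-sided sign permutation test, p = 0.375 to 0.75). The array median was higher with FoxD3-VP16 in 4 of 4 pairs, by 0.08 ± 0.09 (SD; p = 0.125 by the same exact test, the lowest that 4 pairs allow; adjusted p = 0.625 over 5 measures), and its part in the results was not tested beyond the alternative scalings given below.

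Between FoxD3-VP16 and FoxD3, 3497 of 10916 tested genes (32.0%) differed at an adjusted p under 0.05 by limma. The fit had the replicate number as a block, that is, it compared arrays within each number. With FoxD3-VP16, 1592 genes (14.6%) were higher and 1905 (17.5%) lower. Differences of at least 1, a doubling or halving on this scale, were found for 295 of the higher genes (2.70%) and 403 of the lower ones (3.69%), together 6.39%, and differences of at least 2 for 36 (0.330%) and 67 (0.614%). The 4 FoxD3-VP16 arrays all lay above the 4 FoxD3 arrays for 878 genes (8.04%) and all below for 1105 (10.1%). Without the block, limma called 1045 genes (9.57%), 485 higher (4.44%) and 560 lower (5.13%), and all 1045 were also called with it and with the same sign. Without the pair of arrays numbered 4 and its empty-vector array, 2137 genes were called, 964 higher and 1173 lower. The pair difference had the same sign in 4 of 4 pairs for 50.8% of all tested genes (23.6% higher, 27.3% lower) and for 97.8% of called genes. Of the called genes 45.5% were higher, and 46.4% of those called without the block. Scaling the arrays by their medians alone moved the split to 1171 higher and 2331 lower, against 1592 and 1905.

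**Figure D1:**
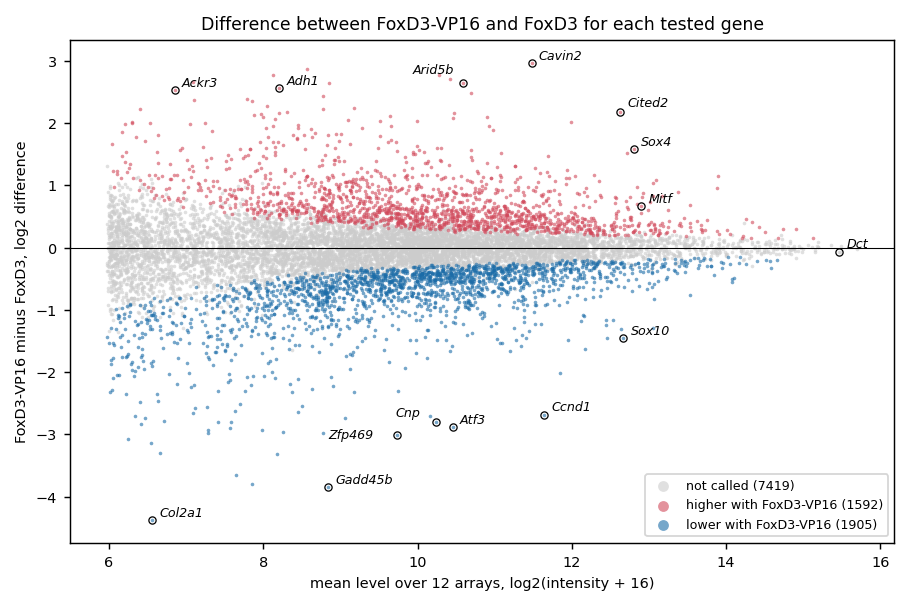
Difference between FoxD3-VP16 and FoxD3 (vertical axis, log2 difference, positive where FoxD3-VP16 is higher) against the mean level over 12 arrays (horizontal axis, log2(intensity + 16)), 1 point per tested gene. Red and blue points are the 1592 and 1905 called genes and circles mark named genes: the falls reach -4.37 (Col2a1) and the rises 2.96 (Cavin2).

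The largest rise was in Cavin2, a coat protein of caveolae, the small pits of the cell membrane. Its level with FoxD3 was 10.11, 10.51, 9.98 and 9.98 in arrays 1 to 4, and with FoxD3-VP16 it was 12.74, 13.05, 13.37 and 13.26. The groups did not overlap, and the empty-vector arrays, at 11.02 to 11.33, lay between them. The difference was 2.96 (SE 0.14, 7.78-fold, adjusted p = 2.74e-08 by limma). Arid5b, a DNA-binding protein that recruits a histone demethylase, lay the same way: 9.10 to 9.39 with FoxD3, 10.40 to 10.80 with the empty vector and 11.56 to 12.28 with FoxD3-VP16. Its difference was 2.65 (SE 0.13, 6.26-fold).

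The iron genes Cp and Slc40a1 and the retinoid gene Adh1 stood among the 15 largest rises, while the retinoic acid carrier Crabp2 was among the 15 largest falls (-2.90). Ceruloplasmin, Cp, the copper enzyme that oxidizes iron as it leaves the cell, had levels of 8.90, 10.38, 8.39 and 8.83 with FoxD3 and 11.28, 12.65, 11.62 and 11.73 with FoxD3-VP16. Array 2 was the highest of each group, and the difference held in every pair, from 2.27 to 3.23. The iron exporter ferroportin, Slc40a1, which works with ceruloplasmin, had 7.24 to 8.23 and then 9.95 to 10.62 (2.64, SE 0.24, 6.25-fold). Adh1, an alcohol dehydrogenase that also oxidizes retinol, had 6.90 to 7.22 and then 9.53 to 9.68 (2.56, SE 0.17, 5.89-fold). For all 3 genes the empty-vector mean lay between the others, at 10.30, 8.65 and 8.02.

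In other genes that rose the empty vector lay close to FoxD3 instead. Periostin, Postn, a matrix protein that binds integrins, had 7.19 to 8.18 with FoxD3, 7.58 to 8.65 with the empty vector and 9.90 to 10.50 with FoxD3-VP16 (2.42, SE 0.21, 5.37-fold). The Rac and Cdc42 activator Dock10 had means of 7.47, 7.90 and 10.33, the chemokine scavenging receptor Ackr3 5.96, 6.12 and 8.49, and the potassium channel Kcnj13 6.98, 7.26 and 9.33. Ccn2, a secreted matrix-associated protein and a common readout of YAP, had 7.13 to 8.94 with FoxD3 and 7.11 to 8.16 with the empty vector. With FoxD3-VP16 it had 9.60 to 10.91 (2.23, SE 0.20, 4.68-fold). The remaining genes among the 15 largest rises were Thsd7a (2.77), the kinase Sgk1 (2.77), the lipid antigen presenter Cd1d1 (2.66), the glutathione transferase Mgst1 (2.48), Pwwp3b (2.38) and the protocadherin Pcdh17 (2.37). Another, dim probe set of Mgst1 had a difference of -0.65. The mean of all probe sets of a gene gave 0.91 for Mgst1 and 1.75 for Dock10, both still called.

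The largest fall was in Col2a1, the fibrillar collagen of cartilage. With FoxD3 its level was 8.77, 8.57, 10.23 and 10.51, and with FoxD3-VP16 it was 4.29, 5.62, 4.61 and 6.08. The empty-vector arrays, at 4.20 to 5.63, lay with those of FoxD3-VP16, and both groups had means below 5.98, the level under which genes were not tested on average. The difference was -4.37 (SE 0.36, 20.7-fold lower, adjusted p = 2.73e-06 by limma), and its size depends on the constant added before the logarithm. Gadd45b, a stress-induced gene of the Gadd45 family, had 11.36, 10.84, 11.49 and 11.47 with FoxD3. With FoxD3-VP16 it had 6.63, 7.15, 7.81 and 8.21, and with the empty vector 6.46 to 8.33 (difference between the FoxD3 forms -3.84, SE 0.27, 14.3-fold lower).

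Fabp3, a fatty acid carrier of muscle, had 9.83 to 10.69 with FoxD3, 4.23 to 7.51 with FoxD3-VP16 and 5.01 to 7.98 with the empty vector. Its difference of -3.79 (SE 0.36) became -2.30 when its probe sets were averaged. Zfp469, a zinc finger protein of the cornea and connective tissue, was even within groups: 11.32 to 11.90 with FoxD3, 8.46 to 8.91 with FoxD3-VP16 and a mean of 8.79 with the empty vector (-3.01, SE 0.12, 8.07-fold lower). The other genes among the 15 largest falls, with differences from -2.90 to -3.65, were Fbxl16, the muscle synapse adaptor Dok7, the peptidylarginine deiminase Padi3, the planar polarity cadherin Celsr3, the neurotrophin receptor Ngfr and the ER retention receptor Kdelr3. Also among them were the ephrin Efna3, Csrnp1, placental growth factor Pgf, the netrin receptor Unc5b and the retinoic acid carrier Crabp2. For Padi3, Celsr3 and Ngfr both FoxD3-VP16 and the empty vector had means under 5.98. In all 30 genes of the largest rises and falls the 4 arrays of one group lay wholly to one side of the other 4, as did 18.2% of all tested genes. The mean of all probe sets gave -2.12 for Dok7 and -1.62 for Csrnp1. The 30 were chosen for their differences, so that count is a description.

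**Figure D2:**
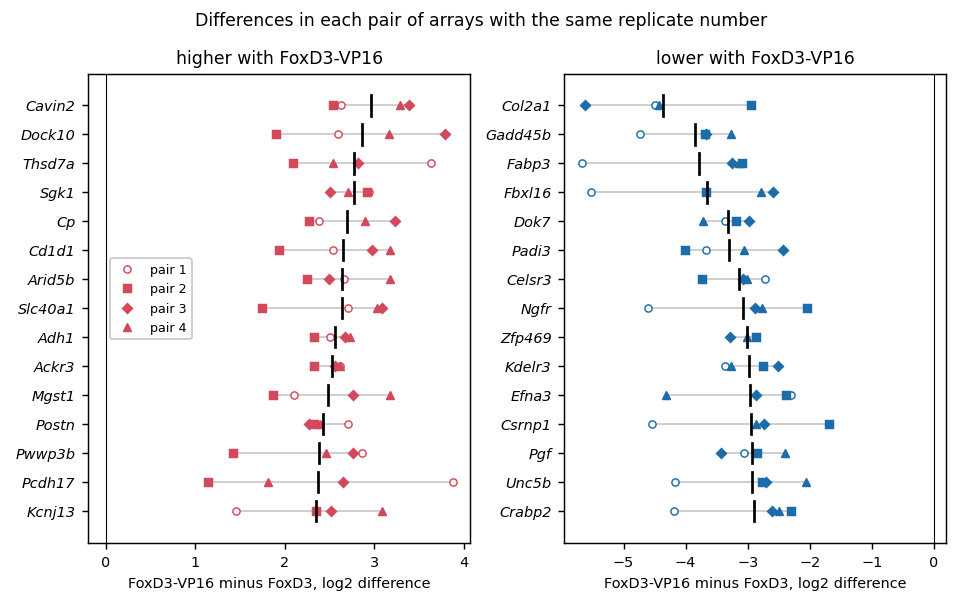
Difference between FoxD3-VP16 and FoxD3 in each pair of arrays with the same replicate number (horizontal axis, log2 difference) for the 15 largest rises (left) and the 15 largest falls (right). Each symbol is 1 pair and each black bar the mean of 4 pairs: every pair lies on the same side of 0, and Fabp3 and Fbxl16 have their largest fall in pair 1.

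Promoter sequences of genes with large differences are shown so that the exchange can be read beside the DNA in front of those genes. The arrays do not show which of them either protein binds. Forkhead proteins bind cores such as TGTTTAC and the related letters TTTGTTT, and both were searched on either strand in the 250 bases before each RefSeq start; the motifs can overlap each other. Of the 15 largest rises, 13 genes had promoters in the RefSeq table (23 windows), and 3 windows, of Cp, Mgst1 and Postn, held TTTGTTT. Of the 15 largest falls, 12 genes had promoters (18 windows) and 0 held either motif. The first and 2 next lines give the genes with the largest rise and the largest falls that have a promoter there, Cavin2, Gadd45b and Fabp3, and the last 3 the windows with a match, chosen after their differences were known. Capitals mark TTTGTTT, or AAACAAA where it lies on the other strand, and all are 5′ to 3′ on the gene's strand, in the RefSeq build GRCm38.p6.
Cavin2: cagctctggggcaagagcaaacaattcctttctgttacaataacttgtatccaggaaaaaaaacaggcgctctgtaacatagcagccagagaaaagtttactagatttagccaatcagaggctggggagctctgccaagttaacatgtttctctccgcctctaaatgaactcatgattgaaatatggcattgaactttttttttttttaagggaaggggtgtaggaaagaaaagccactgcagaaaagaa
Gadd45b: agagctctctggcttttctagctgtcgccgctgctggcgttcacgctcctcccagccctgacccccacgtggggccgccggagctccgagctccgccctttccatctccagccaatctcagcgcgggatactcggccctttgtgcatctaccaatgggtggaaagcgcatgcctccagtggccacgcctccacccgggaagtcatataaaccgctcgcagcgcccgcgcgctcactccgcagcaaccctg
Fabp3: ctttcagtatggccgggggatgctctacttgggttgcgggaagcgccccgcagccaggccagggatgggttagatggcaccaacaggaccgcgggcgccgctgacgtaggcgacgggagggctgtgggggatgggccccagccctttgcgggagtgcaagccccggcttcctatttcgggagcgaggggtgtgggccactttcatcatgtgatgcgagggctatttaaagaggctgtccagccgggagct
Cp: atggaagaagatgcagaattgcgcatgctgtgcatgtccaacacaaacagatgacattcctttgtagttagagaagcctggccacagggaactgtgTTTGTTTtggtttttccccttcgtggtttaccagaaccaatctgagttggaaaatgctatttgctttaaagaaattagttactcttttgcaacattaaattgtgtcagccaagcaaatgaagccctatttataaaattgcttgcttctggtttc
Mgst1: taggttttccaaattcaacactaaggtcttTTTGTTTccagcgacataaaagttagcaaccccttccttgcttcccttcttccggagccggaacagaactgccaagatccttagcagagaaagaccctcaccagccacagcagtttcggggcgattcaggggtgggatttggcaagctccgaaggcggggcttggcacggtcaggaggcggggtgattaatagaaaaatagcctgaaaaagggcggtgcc
Postn: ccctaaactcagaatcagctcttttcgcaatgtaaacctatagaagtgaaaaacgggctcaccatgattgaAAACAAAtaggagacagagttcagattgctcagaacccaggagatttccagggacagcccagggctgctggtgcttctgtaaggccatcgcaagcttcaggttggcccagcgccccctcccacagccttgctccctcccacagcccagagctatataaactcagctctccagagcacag
The Cavin2 window is chr1:51288876-51289125, the Gadd45b window chr10:80929841-80930090 and the Fabp3 window chr4:130308488-130308737. The Cp window is chr3:19956999-19957248, the Mgst1 window chr6:138140277-138140526 and the Postn window chr3:54360857-54361106, all on the plus strand. The match starts 154 bases before the Cp start, 220 before the Mgst1 start and 179 before the Postn start, with the Postn match on the opposite strand.

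The GC content of the windows shown was 40.4% for Cavin2, 39.2% for Cp and 52.0% for Mgst1 and Postn, against 65.2% for Gadd45b and 64.8% for Fabp3. The windows of Cp, Mgst1 and Postn were chosen for holding TTTGTTT, a choice that favours low GC. Over all windows of the 15 largest rises GC content ran from 37.2% to 70.4%, and over those of the 15 largest falls from 51.2% to 78.0%, so the ranges overlap. The values over all genes that follow use windows of 300 bases, with 50 bases after the start, unlike those of the largest rises and falls. Over all genes with a promoter in the table, the median GC content was 61.3% for tested genes, 59.4% for those higher with FoxD3-VP16 and 64.2% for those lower. TTTGTTT was in 6.66% of 11495 windows of tested genes, 9.67% of those of higher genes and 4.44% of those of lower genes. TGTTTAC was in 2.47%, 3.34% and 1.77%. In the whole table of 32851 windows these shares were 9.82% and 3.65%. Both motifs are rich in A and T, and GC content differed in the same direction, so the shares cannot be told apart from base composition here. The same look at falls of at least 1 was void, since 79.2% of those genes had a promoter in the table.

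Gene length moved with the direction of the change. The median genomic span was 37.2 kb for genes higher with FoxD3-VP16, 18.6 kb for genes lower and 23.7 kb for all tested genes. Among rises of at least 1 it was 52.2 kb, and among falls of at least 1 it was 15.5 kb. When tested genes were cut into 4 equal groups by span, 23.2% of the longest were called higher and 11.8% lower, and of the shortest 8.73% and 21.0%. From the shortest group to the longest, the median difference of FoxD3 from the empty vector was 0.08, 0.02, -0.02 and -0.12. That of FoxD3-VP16 from the empty vector was -0.01, -0.03, -0.03 and -0.01, so the trend of these medians with span lay in the FoxD3 arrays. Genes called against the empty vector were not counted by span, so this does not place the larger differences. Across 10899 genes the difference and the span had a Spearman correlation of 0.17, a description of genes that share the same arrays. Base composition and span were not separated.

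Neural crest and melanocyte regulators moved in both directions. List counts here and below stand beside 14.6% higher and 17.5% lower over all tested genes, or 4.44% and 5.13% without the block, and the difference of a list from these shares was not tested. Lists can share members, so their counts are not separate observations. The counts also leave out members too dim on average to be tested, some with large differences. Examples are -2.29 in a potassium channel, -2.19 in a synaptotagmin and -2.16 in a Notch pathway gene, or 1.21 in a chemokine receptor. Sox10, Pax3, Tfap2a, Snai2, Sox5 and Sox9 are in both the neural crest and the melanocyte lineage list. Of 15 tested neural crest regulators, 7 were higher with FoxD3-VP16 and 3 lower, a median difference of 0.53 against -0.03 for all tested genes. Of 20 melanocyte lineage regulators, 8 were higher and 6 lower (median 0.48). Without the block the counts were 4 and 2, and 3 and 2. The genes that were lower include the crest and glial determinant Sox10, and those that were higher include Pax3 and Mitf, which stand above the pigment programme.

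Sox10 had 13.26, 13.37, 13.44 and 13.50 with FoxD3 and 12.09, 12.08, 11.85 and 11.76 with FoxD3-VP16. The empty-vector arrays, at 12.59 to 12.74, lay between groups that did not overlap (-1.45, SE 0.09, 2.73-fold lower, adjusted p = 2.02e-07). Mitf, the master regulator of pigment cells, had 11.80, 12.22, 12.66 and 12.58 with FoxD3 and 12.96, 12.97, 13.07 and 12.93 with FoxD3-VP16. All 4 FoxD3-VP16 arrays lay above the FoxD3 arrays and below the empty-vector arrays, at 13.16 to 13.65 (0.66, SE 0.11, 1.58-fold higher, adjusted p = 0.000606). The pair differences of Mitf ran from 0.34 to 1.16. Pax3, which activates Mitf, had 10.47 to 11.29 and 11.62 to 12.01, again apart, with the empty vector at 11.89 to 12.19 (0.84, SE 0.11, 1.79-fold higher).

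Other crest factors were arranged in a similar way. Tfap2a, which opens crest and melanocyte genes, had means of 10.37 with FoxD3, 11.13 with FoxD3-VP16 and 11.31 with the empty vector (0.76, SE 0.12, 1.70-fold higher). Under 10 of 25 alternatives its difference was 0.35 to 0.49, still called. The cranial homeobox gene Alx1 had 9.97, 11.02 and 11.14 (1.05, SE 0.13), and the Sox factor Sox6 rose by 0.84 (SE 0.11). Snai2, which drives crest migration, rose by 0.54, but not without the block (adjusted p = 0.104), nor without FoxD3-VP16 array 2 (0.40, adjusted p = 0.0510) or the arrays numbered 4 (0.50, adjusted p = 0.0740). It also missed the threshold with the mean of its probe sets (0.49, adjusted p = 0.109) and without probe sets that may cross-hybridize (0.44, adjusted p = 0.353). The survival gene Bcl2, an Mitf target in melanocytes, rose by 0.63 (adjusted p = 0.000885; 0.109 without the block). The Wnt effector Lef1 rose by 1.47 with the block (adjusted p = 0.00454; 0.0978 without it), or 0.92 with 64 added in place of 16, and the transcription repressor Bhlhe40 fell by 2.01 (SE 0.12).

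Several regulators did not pass. Sox9 had 6.12 to 7.02 with FoxD3 and 6.53 to 7.41 with FoxD3-VP16, which overlap (0.66, SE 0.31, adjusted p = 0.115). It passed without FoxD3 array 1 (0.99, adjusted p = 0.0235) and without the arrays numbered 1 (0.95, adjusted p = 0.0155). Weighting arrays by their quality also let it pass (0.84, adjusted p = 0.0122). With the mean of its probe sets the difference was 0.12 (adjusted p = 0.760), and without the arrays numbered 4 it was 0.44 (adjusted p = 0.444). The endothelin receptor Ednrb had a difference of 0.51 (SE 0.32, adjusted p = 0.253), or 0.28 without FoxD3 array 1. Kit, the receptor of melanocyte growth, was too dim on average to be tested, with 6.28 to 6.81 with FoxD3 and 4.75 to 6.01 with FoxD3-VP16.

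Glial genes also moved in both directions. Of 14 tested genes of glia and Schwann cells, 6 were lower (42.9%, beside 17.5% of all tested genes) and 3 higher (21.4%, beside 14.6%; median -0.43; without the block 4 and 2). Cnp, an enzyme of the myelin sheath, had 11.99 to 12.43 with FoxD3 and 9.19 to 9.64 with FoxD3-VP16. The gap is wide against the spread of either group, and the empty-vector arrays, at 8.64 to 9.76, overlapped those of FoxD3-VP16 (-2.80, SE 0.13, 6.96-fold lower). The neuregulin receptor Erbb3, needed by glial precursors, had 11.88 to 12.45 with FoxD3, 10.41 to 10.87 with FoxD3-VP16 and 10.96 to 11.37 with the empty vector (-1.58, SE 0.14). With the mean of its probe sets the difference was -0.91, still called. Ngfr, the low-affinity neurotrophin receptor of crest cells, had 7.80 to 8.73 and 4.13 to 5.75 (-3.07, SE 0.43; -2.04 with 64 added in place of 16). The hedgehog ligand of Schwann cells, Dhh, fell by 1.60, or 0.96 with the mean of its probe sets. Cdh19, a cadherin of Schwann cell precursors, went the other way: 11.29 to 11.97 with FoxD3, 12.24 to 13.06 with FoxD3-VP16 and 12.54 to 13.35 with the empty vector (1.08, SE 0.11, 2.11-fold higher).

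**Figure D3:**
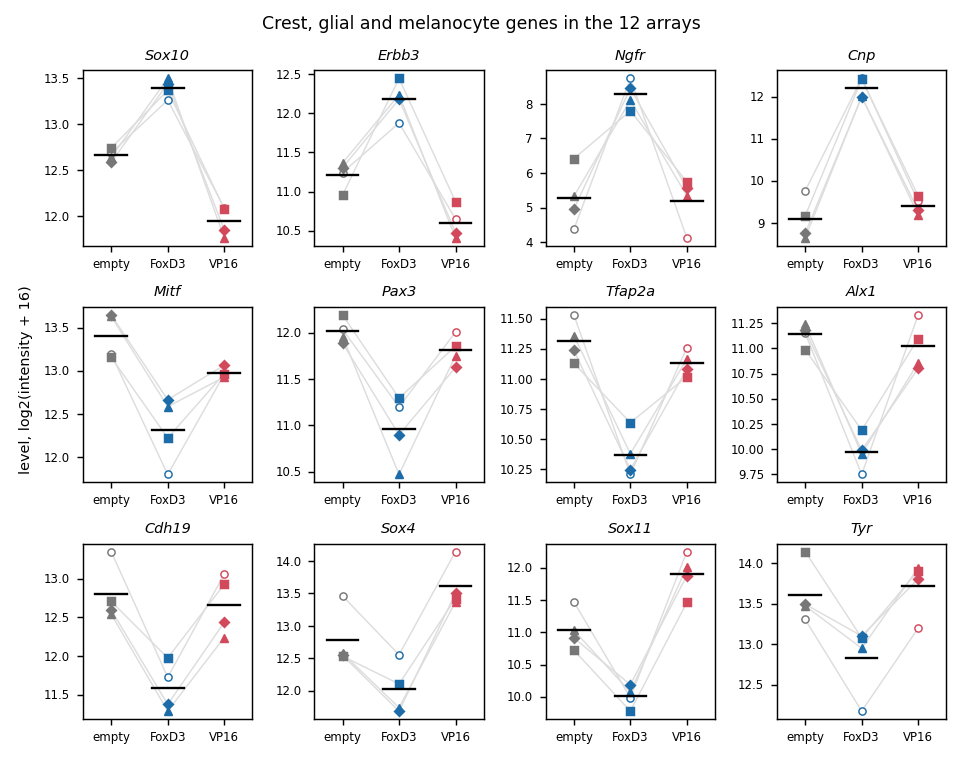
Levels (vertical axes, log2(intensity + 16), scaled per gene and not starting at 0) of 12 crest, glial and melanocyte genes with the empty vector (grey), FoxD3 (blue) and FoxD3-VP16 (red). Symbols are arrays, grey lines join arrays of the same replicate number and bars are means of 4: Sox10, Erbb3, Ngfr and Cnp are highest with FoxD3, and Mitf, Pax3, Tfap2a, Alx1 and Cdh19 are lowest with it.

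Pigment genes were called in both directions. Of 29 tested genes of pigment and melanosomes, 9 were higher and 4 lower, with a median difference of 0.03. Without the block 2 were higher and 0 lower, beside 9.57% of all tested genes called, and with arrays scaled by their medians 3 were higher and 5 lower, so the list has no settled direction. Tyr, the enzyme that starts melanin synthesis, had 12.17, 13.08, 13.10 and 12.95 with FoxD3 and 13.20, 13.91, 13.81 and 13.94 with FoxD3-VP16. The groups did not overlap, and the rise of 0.89 (SE 0.11, 1.85-fold, adjusted p = 8.25e-05) passed without the block too (0.0369). The copper pump Atp7a, which loads copper into Tyr, rose by 1.19 (SE 0.09), and the melanosome transport GTPase Rab32 by 0.70 (adjusted p = 0.00748; 0.101 without the block; 0.46 without FoxD3-VP16 array 4). Mlana, a melanosome protein, had a small rise of 0.30 (SE 0.05), lost without the block (adjusted p = 0.193) and with scaling by medians (0.0879). The melastatin channel Trpm1 fell by 0.92 with the block (adjusted p = 0.000221; 0.293 without it). The abundant pigment genes Dct, Pmel and Tyrp1 had differences of -0.06, -0.05 and 0.03 and did not pass (adjusted p = 0.288, 0.552 and 0.693). The sign of Tyrp1 turned with scaling by medians. All 3 had levels of 14.4 to 15.6.

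Immediate early genes had the largest share called among the lists, all of them lower. These genes switch on within minutes of growth or stress signals, many of them as AP-1 or Egr factors. Of 21 tested, 17 were lower with FoxD3-VP16 and 0 higher, against 17.5% lower over all tested genes. The median difference was -1.26. Without the block 11 were lower and 0 higher. Atf3, a stress factor of this family, had 10.58, 11.68, 12.34 and 12.38 with FoxD3 and 8.17, 9.49, 8.76 and 9.02 with FoxD3-VP16. The empty-vector arrays, at 9.92 to 11.64, overlapped those of FoxD3 and lay above all those of FoxD3-VP16 (-2.89, SE 0.26, 7.39-fold lower, adjusted p = 5.25e-06). The orphan receptor Nr4a1 was even within groups: 10.93 ± 0.10 (SD, n = 4) with FoxD3, 9.58 ± 0.10 with the empty vector and 8.99 ± 0.17 with FoxD3-VP16 (-1.93, SE 0.12, 3.82-fold lower). The small Maf factor Maff had 8.48 to 10.01 with FoxD3 and 6.98 to 7.85 with FoxD3-VP16 (-2.10, SE 0.24). Egr1 had 9.29, 7.68, 10.48 and 10.11 with FoxD3 and 6.83, 7.41, 7.94 and 7.39 with FoxD3-VP16. Those groups overlap through FoxD3 array 2, and the fall of 1.99 (adjusted p = 0.00193) was lost without the block (0.109).

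Growth signalling and G1 genes held large falls as well. Cyclin D1, Ccnd1, which carries cells through G1, had 13.25, 12.78, 13.22 and 13.37 with FoxD3 and 10.65, 9.72, 10.74 and 10.78 with FoxD3-VP16. Array 2 was the lowest of each group, and the groups were far apart (-2.68, SE 0.10, 6.41-fold lower, adjusted p = 2.95e-09). The empty vector lay between them within each replicate number, though its range of 10.58 to 11.60 overlapped that of FoxD3-VP16. The CDK inhibitor Cdkn1a fell as well, from 13.53 to 13.88 down to 12.30 to 12.57 (-1.29, SE 0.18), while the inhibitors Cdkn2c and Cdkn1b rose by 1.13 and 0.67. Cdkn1b missed the threshold without the arrays numbered 1 (0.53, adjusted p = 0.0510). Of 23 tested G1 cyclins and CDK inhibitors, 7 were lower and 3 higher (median 0.05; 2 and 3 without the block). Of the later cell cycle, 3 of 33 S phase genes (9.09%) and 4 of 34 G2 and M genes (11.8%) were called, beside 32.0% of all tested genes. Cdt1, which licenses replication origins, fell by 0.70, a call lost with the mean of its probe sets (-0.26, adjusted p = 0.122). The securin gene Pttg1 rose by 1.08 with the block (adjusted p = 5.62e-06; 0.0719 without it).

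**Figure D4:**
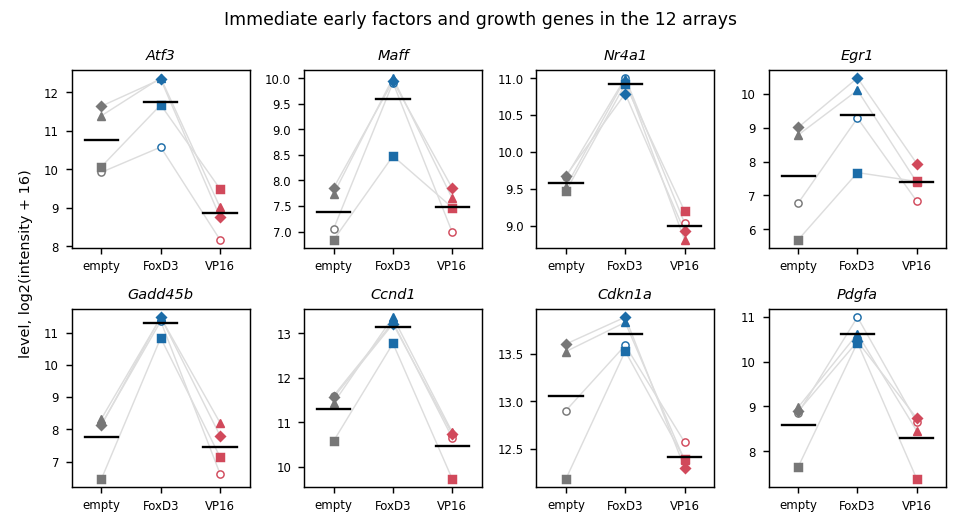
Levels (vertical axes, log2(intensity + 16), scaled per gene and not starting at 0) of 8 immediate early and growth genes with the empty vector (grey), FoxD3 (blue) and FoxD3-VP16 (red). Symbols are arrays, grey lines join arrays of the same replicate number and bars are means of 4: Nr4a1 and Ccnd1 are above the empty vector with FoxD3 and below it with FoxD3-VP16 in every pair, while Gadd45b and Maff with FoxD3-VP16 lie near it.

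Ligands and receptors of growth pathways followed in part. Of 17 tested growth factor ligands, 7 were lower and 4 higher (5 and 2 without the block, and 2 and 1 with the lowest 60% of genes left out). The platelet-derived growth factor chain Pdgfa had 10.42 to 10.99 with FoxD3, 7.38 to 8.74 with FoxD3-VP16 and 7.65 to 8.98 with the empty vector (-2.31, SE 0.19, 4.97-fold lower). Pdgfb fell by 2.74, or 1.74 with the mean of its probe sets, and Pgf, a ligand of VEGF receptors, by 2.94. The mesenchymal ligand Fgf7 rose by 1.71 (SE 0.40), or 0.87 with the mean of its probe sets and 1.09 with 64 added in place of 16. Of 17 receptor tyrosine kinases, 6 were lower and 2 higher (3 and 0 without the block), and 3 and 3 with the mean of all probe sets. Besides Erbb3, Fgfr3 fell by 1.58 (0.77 with the mean of its probe sets) and Axl by 1.12, a call lost with that mean (-0.53, adjusted p = 0.161). Mertk rose by 1.08, a call lost without the block (adjusted p = 0.129) and without the arrays numbered 4 (0.97, adjusted p = 0.0542). Of 22 genes listed as ERK feedback and targets, 7 were higher and 6 lower (2 and 4 without the block, and 5 and 7 with scaling by medians). The lower ones include Ccnd1 and Egr1, which the G1 and immediate early lists also hold, so the counts do not describe feedback genes alone. The phosphatase Dusp14 rose by 1.87 and Dusp8 fell by 1.71.

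In the Notch pathway 6 of 20 tested genes were lower and 1 higher, a share called near the 32.0% of all tested genes (4 and 0 without the block, and 3 lower with the stricter filter). The receptor Notch1 had 10.40, 9.69, 9.51 and 9.66 with FoxD3 and 8.30, 7.69, 7.27 and 7.54 with FoxD3-VP16. Each pair differed by a nearly equal amount, and the empty vector, at 7.63 to 8.12, overlapped FoxD3-VP16 (-2.12, SE 0.15, 4.34-fold lower). The glycosyltransferase Mfng, which tunes Notch for its ligands, fell by 2.71, and Hes1, the repressor that Notch induces, by 1.48. Of 43 axon guidance genes, 15 were lower and 9 higher (4 and 7 without the block, and 7 lower with the stricter filter). The ephrin receptors went opposite ways: Epha2 had 8.32 to 10.05 with FoxD3 and 5.93 to 7.20 with FoxD3-VP16 (-2.80, SE 0.24). Epha3 had 10.42 to 11.44 and then 12.81 to 13.06 (2.01, SE 0.16). The groups did not overlap for either gene.

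Matrix genes split by member. Of 17 tested collagens, 8 were lower and 3 higher (7 and 2 without the block, and 2 and 1 with the lowest 60% of genes left out, which tests fewer members), and of 28 matrix glycoproteins and crosslinking enzymes 10 were lower and 4 higher (5 and 4 without the block, and 6 lower with that filter). With Col2a1, the anchoring fibril collagen Col7a1 fell by 2.63 (SE 0.20) and the cartilage collagen chain Col9a3 by 2.52, or 0.98 with the mean of its probe sets. Another chain of the same collagen type, Col9a1, rose by 2.27 (SE 0.22; 1.44 with the mean of its probe sets), from 6.21 to 7.74 with FoxD3 to a mean of 9.30 with FoxD3-VP16. The crosslinking enzyme Tgm2 fell by 2.80 and the laminin chain Lama5 by 2.20, while fibronectin, Fn1, rose by 0.84. The secreted factor Scube3 did not pass. It had 9.03 to 11.51 with FoxD3 and 8.60 to 10.67 with FoxD3-VP16, both far above the empty vector at 4.83 to 6.84. Its difference of -0.60 (SE 0.52, adjusted p = 0.410) had the same sign in 4 of 4 pairs and passed in the fit of these 8 arrays alone (adjusted p = 0.00329). It ran from -0.117 without FoxD3 array 1 to -0.967 without FoxD3-VP16 array 1, with neither passing.

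Adhesion and cytoskeletal genes were called higher more often than lower. Of 17 tested cadherin and junction genes 6 were higher and 2 lower, and of 29 actin and contractile genes 9 were higher and 5 lower (2 and 0, and 5 and 1, without the block; 0 actin and contractile genes were lower with the mean of all probe sets). The catenin Ctnnd1, which holds cadherins at the membrane, rose by 1.37 (SE 0.14) and the actin regulators Pdlim5 and Cald1 by 1.51 and 1.04. The small GTPase Rnd3 had 8.86 to 9.62 and 8.45 to 10.07 and did not pass (-0.09, adjusted p = 0.771).

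TGF-beta, Hippo, Wnt and hedgehog genes were called in both directions. Of 36 tested TGF-beta and BMP genes, 12 were higher and 8 lower (4 and 6 without the block, and 9 and 11 with scaling by medians). With the lowest 60% of genes left out in place of 40%, 2 were lower. The ligands were opposite, with Tgfb1 lower by 1.61 (SE 0.28) and Tgfb2 higher by 1.41 (SE 0.16). The feedback inhibitor Pmepa1 fell by 2.33, and the decoy receptor Bambi rose by 1.58. Of 23 genes in the list of Hippo targets, which also holds pathway members such as Yap1 and Tead1, 8 were higher and 6 lower (4 and 1 without the block). Of 33 Wnt and polarity genes 9 were higher and 7 lower (5 and 2). With scaling by medians these counts became 7 and 7, and 8 and 9, and with the mean of all probe sets 8 and 3, and 3 and 2. Of 10 hedgehog genes 2 were higher and 2 lower, or 1 and 0 with the stricter filter. The Wnt receptor Fzd2 rose by 1.77 and the signal relay Dvl1 fell by 1.18 (lost without the block, adjusted p = 0.345). Of the hedgehog effectors, Gli1 fell by 1.99, or 1.21 with 64 added in place of 16, and Gli3 rose by 0.99.

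Transcription factor families were also divided. Of 8 tested Sox genes 4 were higher and 1 lower (3 and 1 without the block). Sox4, a factor of progenitor cells, had 12.55, 12.11, 11.69 and 11.74 with FoxD3 and 14.14, 13.42, 13.51 and 13.37 with FoxD3-VP16. The empty-vector arrays, at 12.53 to 13.46, lay between in each pair (1.59, SE 0.09, 3.00-fold higher, adjusted p = 8.64e-08). Its close relative Sox11 had 9.78 to 10.19, 10.72 to 11.47 with the empty vector and 11.46 to 12.25 (1.89, SE 0.12, 3.71-fold higher). Of 18 forkhead genes 5 were higher and 4 lower, with Foxp2 (1.74; 1.16 with the mean of its probe sets) and Foxp1 (0.94) up. Foxk1 fell by 0.98, a call lost with the mean of its probe sets (-0.46, adjusted p = 0.136). Tcf4, a partner of tissue-specific bHLH factors, rose by 2.07 (SE 0.14). Of 17 Kruppel-like and Sp factors 5 were higher and 5 lower. Klf10, an early target of TGF-beta, fell by 2.31 and Klf12 rose by 1.77, or 1.08 with the mean of its probe sets. Corepressors (3 higher and 3 lower of 19) and coactivators (7 higher and 9 lower of 38) were called at 31.6% and 42.1%, beside 32.0% of all tested genes. Without the block the counts were 1 and 1, and 2 and 0. Among the coactivators Cited2, which binds the acetyltransferases CBP and p300, had 11.87, 11.24, 11.39 and 11.33 with FoxD3 and 13.88, 13.47, 13.52 and 13.67 with FoxD3-VP16. The empty vector lay between, at 12.43 to 13.04 (2.18, SE 0.08, 4.53-fold higher, adjusted p = 2.95e-09). The Groucho corepressor Tle1 rose by 0.78, but not without FoxD3-VP16 array 1 (0.35, adjusted p = 0.143) or the arrays numbered 1 (0.32, adjusted p = 0.170).

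Stress genes that were called were more often lower than higher, beside 32.0% of all tested genes called, 17.5% lower. Of 22 tested genes listed as p53 targets 8 were lower and 3 higher, and whether p53 acts on them in these cells was not tested. Among those listed, Gadd45g (-2.31) fell beside Gadd45b and Cdkn1a, and Sesn1, an antioxidant and mTORC1 inhibitor, was higher by 1.95 (SE 0.11). Of 20 cytosolic heat shock genes 8 were lower and 1 higher. The small heat shock protein Hspb1 had 10.17 to 10.56 with FoxD3, 7.79 to 8.42 with FoxD3-VP16 and 7.88 to 8.40 with the empty vector (-2.22, SE 0.17, 4.64-fold lower). The co-chaperone Dnajb4 was the exception, from 9.44 to 10.07 up to 11.50 to 12.20 (2.10, SE 0.14, 4.28-fold higher). Of 32 genes of the unfolded protein and integrated stress responses 11 were lower and 2 higher, with Herpud1, of ER-associated degradation, down by 1.22. Of 31 hypoxia and glycolysis genes 9 were lower and 1 higher, a share called (32.3%) near that of all tested genes, with Ndrg1 down by 1.66. Of 23 amino acid transporters 12 were lower and 2 higher, with Slc38a3 (-2.35; -1.34 with the mean of its probe sets), the creatine transporter Slc6a8 (-1.23) and Slc7a5 (-0.82), which imports leucine. Of 15 Bcl2 family genes 6 were lower and 2 higher. Without the block the pairs of counts, lower and higher, were 3 and 2 for p53 targets and 2 and 1 for heat shock. They were 2 and 0 for unfolded protein genes, 3 and 0 for hypoxia and for amino acid transporters, and 1 and 0 for the Bcl2 family.

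Metabolic and immune lists were divided. Of 23 iron and copper genes 6 were higher and 4 lower, with the reductase Steap2 (0.85) beside Cp, Slc40a1 and Atp7a. Of 13 retinoid genes 5 were higher and 2 lower, and 5 and 4 with scaling by medians. Cyp26b1, an enzyme that degrades retinoic acid, rose by 1.13. Of 15 xenobiotic response genes 6 were higher and 2 lower, with the glutathione transferase Gstm1 (2.83-fold) up and the sulfiredoxin Srxn1 (-0.97) down. Of 25 cholesterol synthesis genes 6 were higher and 3 lower (3 and 3 with scaling by medians), with Stard4, a sterol carrier, up by 0.81. Of 16 antigen presentation genes 5 were lower and 1 higher, with the class I gene H2-K1, whose probe sets may share related genes, down by 1.25, or 0.66 with the mean of its probe sets. Of 32 interferon response genes 5 were higher and 0 lower, but 6 and 6 with array quality weights, so that list has no settled direction. Without the block the counts, higher and lower, were 4 and 1, 2 and 2, 3 and 1, 2 and 1, 1 and 1, and 2 and 0 for these 6 lists in turn.

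The remaining lists were small or divided. Of 22 matrix proteases and inhibitors 4 were higher and 4 lower, of 12 integrins 4 and 2, of 19 lipid binding and uptake genes 3 and 3, and of 38 lysosome genes 7 and 10. Without the block these counts were 2 and 1, 1 and 0, 0 and 1, and 0 and 1. Of 9 mesenchymal transition factors 5 were higher and 2 lower (2 and 2 without the block, 3 and 2 with scaling by medians), and of 6 caveolar genes 1 and 1. Of 8 chemokines and receptors 1 was higher, of 10 potassium channels 1 was higher and 2 lower, of 5 neuronal genes 1 and 2, and of 4 pluripotency genes 1 was lower.

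Several lists had a share called below the 32.0% of all tested genes, a difference that was not tested. Of 33 ribosomal protein genes 2 were called (6.06%), of 44 respiratory chain genes 6 (13.6%) and of 20 synaptotagmin and exocytosis genes 3 (15%). Members too dim to be tested are outside these shares. Of 21 housekeeping genes 6 were called (28.6%, 3 in each direction), near the share of all tested genes. The medians of these lists were between -0.03 and 0.05. Of the tested markers of other cells, 0 of 6 leukocyte and 0 of 2 keratinocyte markers were called by limma, with or without the block, and 2 of 3 endothelial markers were lower with the block and 0 without it. Of the fibroblast markers, Col5a1 (-1.15) and Col1a1 (-1.60; lost without the block, adjusted p = 0.0692) fell, and Col1a2 had a difference of 0.84 that was called and was lost in 13 of 24 alternatives.

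**Figure D5:**
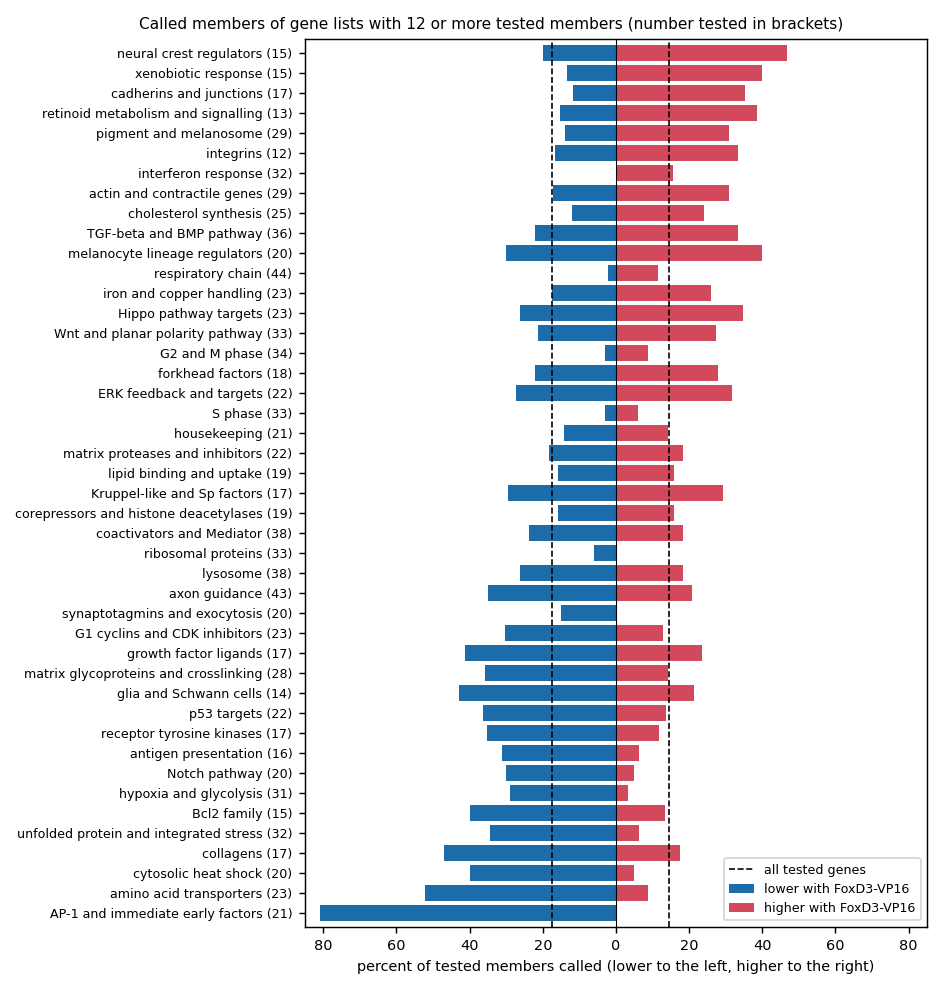
Percent of tested members called lower (blue, left) and higher (red, right) with FoxD3-VP16 for the lists shown, each with 12 or more tested members, ordered by the difference of both shares. Dashed lines are the shares over all tested genes, 17.5% lower and 14.6% higher: immediate early factors lie at the foot with 81.0% lower, and neural crest regulators and xenobiotic response genes at the head with 7 and 6 of 15 members higher.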

How the data were processed

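RNA of sorted cells was amplified, labelled with biotin and hybridized to 1-colour Affymetrix arrays, per the labels' protocols. The deposited table holds intensities on a linear scale. The submitters' processing notes name MAS5, a label names dChip, and versions are not given in the sources used here. Trimmed means (2%) of the deposited intensities were 500.003 to 500.004 in all 12 arrays, and the medians of their log2 values spanned 0.79. Precision is limited by 4 arrays a group.

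Here 16 was added, log2 taken and the 12 arrays quantile normalized. Of 45101 probe sets, 34945 had 1 gene symbol in the platform annotation, 932 several, 9160 were not listed and 64 were controls. The probe set with the highest mean stood for its gene (18193 genes), and the lowest 40% were left out (limit 5.98), leaving 10916. limma 3.58.1 in R 4.3.3 fitted group and replicate number over all 12 arrays (lmFit, eBayes with trend, 6 residual and 7.30 prior degrees of freedom), with Benjamini-Hochberg adjustment over all tested genes at 0.05. A check on simulated data drew independent noise from the same model, so it concerns the code and not the calls made here. Pairing comes from the numbers in the titles: deviations from group means correlated at 0.44 to 0.67 for the same number. They correlated at 0.47 to 0.49 between numbers 3 and 4, and at -0.50 to 0.12 for the other 10 combinations. All differences were refitted without the replicate block.

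Genes named are the 15 largest rises and 15 largest falls with the same sign in 4 of 4 pairs, up to 4 called members per list with a difference of at least 0.5, and 30 genes known from the crest and melanocyte literature or earlier results. The promoter windows and Gpr143, Gapdh and Actb serve as checks. The 57 lists (1636 genes, 1113 tested), the members and the tests were chosen with earlier results of these data known, and 1 list is not reported here. Promoters and gene spans came from RefSeq tables and were searched with Python 3.11.15. Col2a1 has no promoter printed.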

Additional observations from a re-analysis of the deposited data

Results flagged for a closer look

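For 127 genes named above, the 4 arrays of the FoxD3 and of the FoxD3-VP16 group were each searched for a single array far from the other 3, by a rule under which chance marks about 1 in 20 groups. Of 254 such groups 28 held one, 16 with FoxD3 and 12 with FoxD3-VP16, and 18 of the 28 were arrays numbered 1. All values are levels, log2(intensity + 16).

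Among the genes with the largest differences, FoxD3-VP16 array 2 stood low for Sgk1 at 10.86 and for Ccnd1 at 9.72. FoxD3-VP16 array 1 stood low for Csrnp1 at 4.86 and for Crabp2 at 5.39. Both arrays numbered 1 stood low for Postn, at 7.19 with FoxD3 and 9.90 with FoxD3-VP16, so the difference within that pair, 2.70, was close to those of the other pairs.

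In lineage and pigment genes, FoxD3 array 1 stood high for Snai2 at 9.71 and Atp7a at 11.42 and low for Tyr at 12.17. Dct was low in both arrays numbered 1, at 15.13 and 15.15. FoxD3-VP16 array 1 stood low for Sox9 at 6.53 and high for Ednrb at 7.84, FoxD3-VP16 array 3 low for Rab32 at 9.20, and FoxD3-VP16 array 2 high for Bhlhe40 at 11.58. FoxD3 array 4 stood high for the dim mouse Foxd3 at 5.26, while the others reached 4.69 at most.

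In matrix and signalling genes, FoxD3 array 1 stood high for Col9a3 at 9.95 and Dvl1 at 14.36, and low for Tcf4 at 8.62, Fgf7 at 4.47 and Pdlim5 at 9.56. FoxD3 array 2 stood low for Col7a1 at 8.64 and Maff at 8.48. In stress and cell cycle genes, FoxD3 array 1 stood high for Pttg1 at 13.49 and low for Sesn1 at 8.63. Herpud1 was high in both arrays numbered 2, at 12.58 and 11.60, and Gstm1 was high in FoxD3-VP16 array 2 at 11.19.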

How the results depend on the processing

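The replicate block had the largest effect: without it 1045 genes were called, 485 higher and 560 lower, against 3497, 1592 and 1905. Leaving out single arrays, or all arrays of 1 number, gave 2137 to 3354 called genes, 964 to 1530 higher and 1173 to 1824 lower, with the lowest counts without number 4. In the remaining alternatives the 3 counts stayed within 1.5 times the reported ones. They were the 8 arrays alone, added constants of 1 and 64, values as deposited, median centring, other filters, other choices of probe set, array quality weights and other variance fits. The 8 arrays alone gave 3837 called genes, 1726 higher and 2111 lower. Median centring gave 1171 higher and 2331 lower, with a median difference over all genes of -0.10. Of 193 called genes picked for description, 121 stayed called under every alternative and 63 were lost without the block. Among all called genes that stayed called, 1 turned sign with the 8 arrays alone and 2 with the mean of all probe sets. Among the genes named, differences turned sign only for Tyrp1 and Rnd3, which did not pass. Tyrp1 had -0.011 with median centring (adjusted p = 0.939), and over the fits without 1 array or number its difference ran from -0.0072 to 0.0799. Rnd3 had 0.0925 with the mean of all probe sets, and ran from -0.327 to 0.0714 over those fits.

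Dim signal limits the data: means under 5.98 lay in the dimmest 40% of genes, so the sizes of Col2a1, Padi3, Celsr3, Ngfr and Pdgfb depend on the added constant. With 4 arrays a group, sorted cells of 1 line and no measure of either protein, differences between the vectors cannot be told apart from differences in their expression.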
